A study of Mus musculus with 4 samples.

Results

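The 10 genes described here encode the core proteins that turn arachidonic acid into prostaglandins and leukotrienes. They are the cyclooxygenases Ptgs1 and Ptgs2, the prostaglandin synthases Ptges and Hpgds, the reductase Ptgr1, the lipoxygenases Alox5 and Alox15, the helper protein Alox5ap, and the leukotriene enzymes Lta4h and Ltc4s. They were chosen by symbol, with no measured value in the rule, and each of the 10 stood in 1 of the 22700 rows of the deposited tables. Ptgr1 breaks eicosanoids down and Alox5ap is not itself an enzyme, so the set is wider than synthesis in the strict sense.

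RNA was sequenced from cultured bone marrow of male mice aged 12 weeks, grown for 7 to 8 days with a colony-stimulating factor, and the labels call the cells bone marrow macrophages. The 4 groups were db/db marrow in 20 ng/ml of GM-CSF, db/+ marrow in 20 ng/ml of GM-CSF, db/db marrow in 10 ng/ml of M-CSF and db/+ marrow in 10 ng/ml of M-CSF, with 1 library each. The db/db mice, labelled BKS.Cg-m+/+leprdb/J and Type 2 Diabetic, lack the signalling form of the leptin receptor in all tissues. The db/+ littermates, labelled BKS.Cg-m+/+leprdb+/J and Control, carry 1 db allele. The sources used here do not say whether a library came from 1 mouse or a pool, and no value has a replicate within its group.

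The libraries held 25603389 to 28622706 recovered reads. Lepr was at 60.3 and 49.4 normalised reads in the GM-CSF db/db and db/+ libraries and at 21.8 and 6.7 in the M-CSF db/db and db/+ libraries, and a total over the gene does not check a splice mutation. The macrophage markers Cd68, Csf1r and Adgre1 (Emr1 in the files) were between 11230 and 120627 in every library but differed between the cultures. Adgre1 was at 11450 and 11230 in GM-CSF db/db and db/+, against 97863 and 98661.5 in M-CSF db/db and db/+. Csf1r was at 33103 and 33550 in the same order in GM-CSF, against 105159 and 120627 in M-CSF. Cd68 was higher in GM-CSF, at 26213 and 24556, against 11645 and 15996.5 in M-CSF. The 14 fibroblast and stromal markers were higher in the M-CSF libraries and summed to 75348 and 27471 in M-CSF db/db and db/+, against 347 and 306 in GM-CSF db/db and db/+. In RNA of whole cultures, fewer cells of a type and less RNA per cell cannot be told apart.

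Eicosanoids are short-range lipid signals made on demand from arachidonic acid in cell membranes. Cyclooxygenases make prostaglandin H2, which terminal synthases turn into single prostanoids, such as prostaglandin E2 by Ptges and prostaglandin D2 by Hpgds. Alox5, helped by Alox5ap, makes leukotriene A4, which Lta4h turns into leukotriene B4, a neutrophil attractant, and Ltc4s into the cysteinyl leukotriene C4. Macrophages are a classical source of both families, and the blend that they release depends on which enzymes they hold.

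GM-CSF cultures held more transcripts of Ptges, Ltc4s, Ptgr1, Alox15, Lta4h, Alox5 and Ptgs1, and fewer of Ptgs2 and Hpgds, while Alox5ap did not pass the test. The calls of Alox5, Alox15 and Alox5ap changed under some alternatives given below. The summed normalised reads of all 10 were 19289 and 19309 in GM-CSF db/db and db/+, against 18854 and 20718 in M-CSF db/db and db/+. Between the genotypes, Ptgs2 was 2.22-fold higher in db/db M-CSF, and no member was 2-fold apart in GM-CSF.

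**Figure D1:**
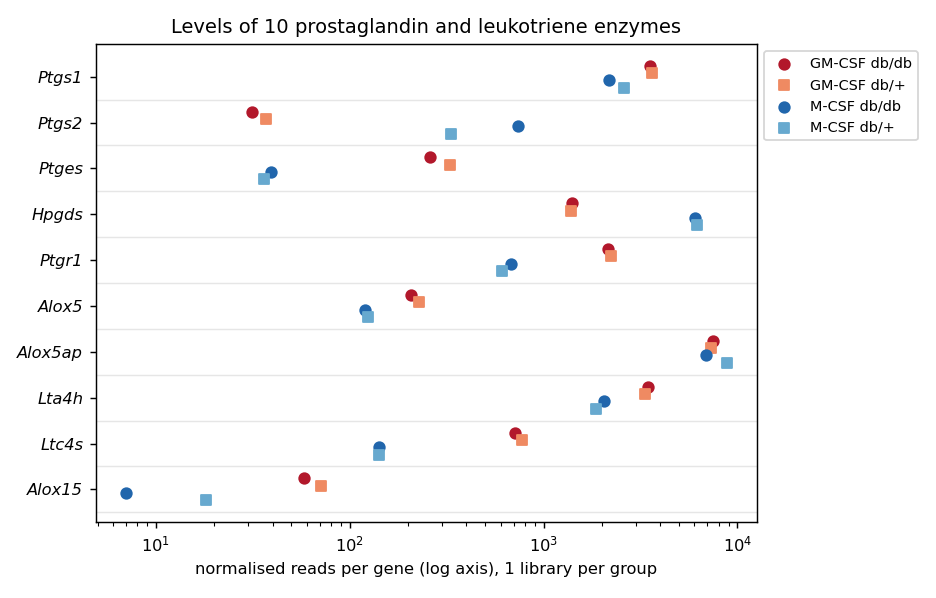
Normalised reads of each gene on a log axis, with 1 point per library, GM-CSF in red and M-CSF in blue, circles for db/db and squares for db/+. For every gene but Alox5ap both GM-CSF points lie on the same side of both M-CSF points, and for Ptgs2 the M-CSF points of 742 in db/db and 334 in db/+ are also well apart.

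Values are normalised reads, that is reads per gene divided by a size factor of the library. Log2 folds were taken on log2(normalised reads + 5), which understates changes of low genes. Each ratio is followed in brackets by its exact 95% counting interval on read pairs, which covers counting error only, since PCR reads are not independent molecules. For the culture effect the 2 libraries of each culture type, 1 per genotype, were tested with limma in an additive model with genotype. The residual of that model is how far the culture effect differs between the genotypes, not a spread between replicates. Of the 13642 genes that reached 20 normalised reads in a library, 57.1% passed for culture at a Benjamini-Hochberg adjusted p of 0.05, 29.8% higher in GM-CSF and 27.3% lower. Against that background 9 of the 10 members passed, 7 higher in GM-CSF and 2 lower, and the median culture effect was 0.81 over the members and 0.02 over all genes. Alox15 reached the minimum in the GM-CSF libraries alone, so it had to be higher there. At a level minimum of 200, 8 of the other 9 passed. Ptges, Ltc4s and Alox5 reached that level in GM-CSF alone and Ptgs2 in M-CSF alone, which again set their direction. When reads were scaled by library total in place of the authors' factors, the median of all genes moved to -0.32 and the called genes split at 26.4% higher, against 52.2% in the main scaling. In that scaling 6 members passed as higher and 3 as lower.

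Counted by fold, 4 members exceeded M-CSF by 2-fold or more in GM-CSF and 2 lay as far below, both in db/db and in db/+ marrow. Among all genes 11.3% were higher and 15.8% lower by that margin in db/db, and 12.0% higher and 15.7% lower in db/+. With scaling by library total higher genes were 27.0% of those 2-fold apart in db/db and 28.7% in db/+, against 41.7% and 43.3% in the main scaling, and the members' counts stayed at 4 and 2.

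**Figure D2:**
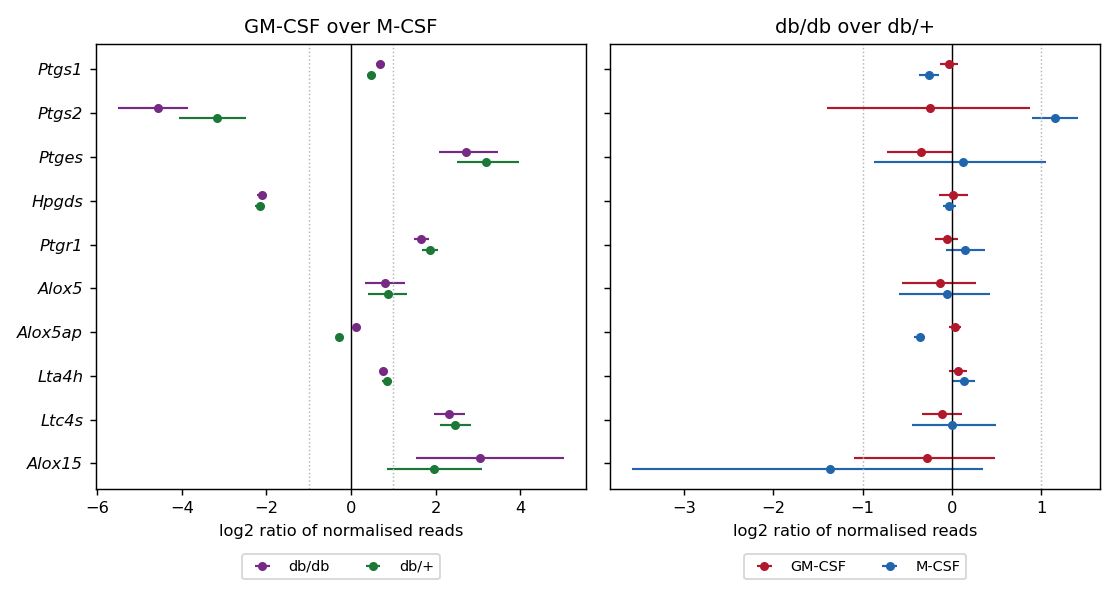
Log2 ratios of normalised reads per gene, GM-CSF over M-CSF on the left (db/db in purple, db/+ in green) and db/db over db/+ on the right (GM-CSF in red, M-CSF in blue). Bars are 95% counting intervals and dotted lines mark 2-fold. Ptgs2 and Hpgds lie left of the lower line in both genotypes for culture, and Ptgs2 in M-CSF, at 2.22-fold, is the 1 gene whose point lies beyond the upper line for genotype, while the point of Alox15 beyond the lower one has an interval that spans 0.

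Promoters of 4 genes are shown because these genes moved together within each pair by more than 2-fold, Ptgs2 and Hpgds lower and Ptges and Ltc4s higher in GM-CSF. Each line gives the 250 bases before the gene's start from RefSeq on build GRCm38.p6, 5′ to 3′ on the gene's strand, with motif matches in capitals. They lie at chr1:150099781-150100030 on the plus strand (Ptgs2), and on the minus strand at chr6:65144731-65144980 (Hpgds), chr2:30903298-30903547 (Ptges) and chr11:50238533-50238782 (Ltc4s).
Ptgs2: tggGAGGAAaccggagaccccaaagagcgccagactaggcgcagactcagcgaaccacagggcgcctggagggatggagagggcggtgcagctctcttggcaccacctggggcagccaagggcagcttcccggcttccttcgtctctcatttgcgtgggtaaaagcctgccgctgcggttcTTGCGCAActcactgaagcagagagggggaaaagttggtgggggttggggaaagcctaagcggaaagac
Hpgds: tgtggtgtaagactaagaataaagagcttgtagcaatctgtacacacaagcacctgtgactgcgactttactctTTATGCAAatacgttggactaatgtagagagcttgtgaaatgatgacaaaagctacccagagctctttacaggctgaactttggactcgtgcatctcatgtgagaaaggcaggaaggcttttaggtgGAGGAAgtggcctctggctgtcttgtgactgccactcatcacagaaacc
Ptges: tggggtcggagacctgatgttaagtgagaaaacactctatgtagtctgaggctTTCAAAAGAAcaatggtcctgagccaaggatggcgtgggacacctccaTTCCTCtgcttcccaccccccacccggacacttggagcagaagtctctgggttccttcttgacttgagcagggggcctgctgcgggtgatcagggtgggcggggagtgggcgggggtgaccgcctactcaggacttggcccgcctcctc
Ltc4s: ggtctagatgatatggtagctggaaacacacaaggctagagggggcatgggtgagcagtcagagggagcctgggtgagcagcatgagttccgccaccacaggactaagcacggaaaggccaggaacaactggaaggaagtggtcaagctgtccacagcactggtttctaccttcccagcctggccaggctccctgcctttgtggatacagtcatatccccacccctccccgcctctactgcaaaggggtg

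Both strands were searched for 10 motifs, of which TGACG lies within TGACGTCA: the STAT motif TTCNNNGAA, the STAT6 motif with 4 bases between TTC and GAA, the PU.1 core GAGGAA, the C/EBP motif TTGCNNAA, the cyclic AMP element TGACGTCA and its part TGACG, the AP-1 motif TGANTCA, the NF-kB motif with 2 bases between GGG and TTTCC, the TATA motif TATAAA and the E-box CACGTG. Ptgs2 and Hpgds each held a C/EBP match, at 69 and 176 bases before the start, and a GAGGAA core, at 247 and 49 bases. Ptges held a GAGGAA core on its other strand at 149 bases and a STAT6 match at 197 bases, and Ltc4s held none of the 10. Promoters were found for 8 of the 10 members, not Alox5ap and Alox15. GAGGAA stood in 6 of the 8, against 23.1% of 27025 promoters of the same length, and the C/EBP motif in 3 of the 8, against 9.55%. The third C/EBP match lay 172 bases before the start of Ptgr1, which was more than 2-fold higher in GM-CSF, unlike Ptgs2 and Hpgds. The STAT6 motif stood in 1, against 5.86%, and the other motifs in 0, against shares from 1.40% to 17.9%. A match describes letters and is not evidence of binding.

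Of the cyclooxygenases Ptgs1, the constitutive form, had 3537 and 3629 normalised reads in GM-CSF db/db and db/+, and 2183 and 2610.0 in M-CSF db/db and db/+. Both GM-CSF libraries lay above both M-CSF libraries. The culture effect was 0.59 on the log2 scale (SE 0.09, limma adjusted p = 5.26e-05), with ratios of 1.62 (1.505 to 1.75) in db/db and 1.39 (1.29 to 1.495) in db/+. With scaling by library total the effect was 0.24 (limma adjusted p = 0.0277). The db/+ log2 fold, 0.47 in the main scaling, then became 0.15.

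Ptgs2, the inducible form, had 31.2 and 37.0 normalised reads in GM-CSF db/db and db/+, and 742 and 334 in M-CSF db/db and db/+. It was low in both GM-CSF libraries and highest in M-CSF db/db, and the culture types did not overlap. The GM-CSF to M-CSF ratio was 0.0421 (0.0220 to 0.0688) in db/db and 0.111 (0.0600 to 0.179) in db/+, and these intervals overlap. Its culture effect of -3.69 (SE 0.28, limma adjusted p = 4.01e-08) was the largest of the 10 in size. Fibroblast and stromal markers were also lower in GM-CSF, summing to 347 and 306 in db/db and db/+, against 75348 and 27471 in M-CSF. Their part in the culture result on Ptgs2 was not tested. Ptgs1 reads exceeded Ptgs2 reads by 113 and 98.1 times in GM-CSF db/db and db/+, and by 2.94 and 7.82 times in M-CSF db/db and db/+.

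Ptges, the inducible prostaglandin E synthase that is often induced together with Ptgs2, went the other way. It had 259 and 331 normalised reads in GM-CSF db/db and db/+, against 39.2 and 36.1 in M-CSF db/db and db/+. The ratio was 6.61 (4.25 to 11.2) in db/db and 9.17 (5.68 to 15.7) in db/+, and the culture effect was 2.81 (SE 0.24, limma adjusted p = 1.65e-07). Reads of Ptges thus stood at 8.31 and 8.94 times those of Ptgs2 in GM-CSF db/db and db/+, and at 0.0529 and 0.108 times in M-CSF db/db and db/+.

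Hpgds, which makes prostaglandin D2 in hematopoietic cells, was lower in GM-CSF. It had 1404 and 1392 normalised reads in GM-CSF db/db and db/+, against 6045 and 6171 in M-CSF db/db and db/+. The ratio was 0.232 (0.213 to 0.253) in db/db and 0.226 (0.207 to 0.246) in db/+, and the culture effect was -2.12 (SE 0.08, limma adjusted p = 2.49e-11). Hpgds reads were 5.41 and 4.21 times those of Ptges in GM-CSF db/db and db/+, and 154 and 171 times in M-CSF db/db and db/+. Mast cells and basophils are another known source of Hpgds and Ltc4s. Of the 15 markers of those cells, Cpa3 was at 7.5 and 3.4 in GM-CSF db/db and db/+ and 46.2 and 39.9 in M-CSF db/db and db/+, and Ms4a2 was at 1.1, 0, 4.3 and 4.8 in the same libraries. Kit, which the list also holds, was at 2540.0 and 2614 in GM-CSF db/db and db/+, against 106 and 106 in M-CSF db/db and db/+. The whole list summed to 2591 and 2643 in GM-CSF db/db and db/+, against 433 and 404 in M-CSF db/db and db/+, and its part in the results on Hpgds and Ltc4s was not tested.

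Ptgr1, a reductase that inactivates prostaglandins and leukotriene B4, had 2145 and 2238 normalised reads in GM-CSF db/db and db/+, against 678 and 612 in M-CSF db/db and db/+. Its ratio was 3.16 (2.81 to 3.57) in db/db and 3.66 (3.22 to 4.16) in db/+. The groups did not overlap, and the culture effect was 1.76 (SE 0.10, limma adjusted p = 1.59e-09).

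In the leukotriene branch Alox5, which catalyses the first steps, had 208 and 229 normalised reads in GM-CSF db/db and db/+, against 119 and 125 in M-CSF db/db and db/+. The culture effect was 0.81 (SE 0.20, limma adjusted p = 0.00318), a ratio of 1.74 (1.26 to 2.41) in db/db and 1.84 (1.32 to 2.52) in db/+. That call did not hold in DESeq2 (adjusted p = 0.120), with scaling by library total (0.0531), or without the GM-CSF db/+ library in a model of culture alone (0.0784).

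Alox5ap, which presents arachidonate to Alox5, had 7463 and 7289 normalised reads in GM-CSF db/db and db/+, and 6861 and 8817 in M-CSF db/db and db/+. The GM-CSF values lay between the M-CSF values. The culture effect was -0.08 (SE 0.10, limma adjusted p = 0.531). In models of culture alone it was 0.10 without the M-CSF db/+ library (adjusted p = 0.0790) and -0.26 without the M-CSF db/db library (adjusted p = 0.0160). With scaling by library total it was -0.42 (adjusted p = 0.00268), and the db/db log2 fold, 0.12 in the main scaling, became -0.24.

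Lta4h had 3470.5 and 3320 normalised reads in GM-CSF db/db and db/+, against 2039 and 1854 in M-CSF db/db and db/+. The culture effect was 0.80 (SE 0.09, limma adjusted p = 1.42e-06), with both GM-CSF libraries above both M-CSF libraries. With scaling by library total the effect was 0.46 (limma adjusted p = 5.60e-04). Ltc4s had 713 and 774 in GM-CSF db/db and db/+, against 142 and 142 in M-CSF db/db and db/+. Its ratio was 5.02 (3.92 to 6.45) in db/db and 5.46 (4.27 to 7.17) in db/+, and the culture effect was 2.35 (SE 0.15, limma adjusted p = 6.34e-09). The enzymes that compete for leukotriene A4 thus rose unequally: Lta4h reads were 4.86 and 4.29 times those of Ltc4s in GM-CSF db/db and db/+, and 14.4 and 13.1 times in M-CSF db/db and db/+. Exons of Ltc4s, with a longest transcript of 649 bases, overlap the opposite-strand gene Gm26542 by 192 summed bases. Reads from that overlap cannot be told apart.

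Alox15, which oxygenates arachidonate at other positions and is known as a target of interleukin 4 signalling, had 58.1 and 70.7 normalised reads in GM-CSF db/db and db/+, against 7.0 and 18.1 in M-CSF db/db and db/+. These came from 54 and 63 reads in GM-CSF, against 8 and 19 in M-CSF. The ratio was 8.30 (2.90 to 32.8) in db/db and 3.91 (1.81 to 8.61) in db/+, and the culture effect of 2.05 (SE 0.39, limma adjusted p = 4.32e-04) did not hold without the GM-CSF db/+ library in a model of culture alone (adjusted p = 0.0543). Of 11 genes of alternative activation, the state that interleukin 4 induces, 8 passed as higher in GM-CSF and 3 as lower. Among all genes 29.8% passed as higher and 27.3% as lower. Arg1, which encodes arginase, was at 14108 and 14049 in GM-CSF db/db and db/+, against 30.5 and 52.3 in M-CSF db/db and db/+. The part of these genes, or of interleukin 4, in the result on Alox15 was not tested. Eosinophils also express Alox15 in mice. Of their 8 markers, the granule gene Prg2 was at 4.3 and 2.3 in GM-CSF db/db and db/+, against 128 and 124 in M-CSF db/db and db/+. The granule gene Epx was at 3.2, 1.1, 11.3 and 8.6 in those libraries, and the receptor gene Il5ra was at 0 and 0 in GM-CSF, against 7.0 and 6.7 in M-CSF. Of the 5 eosinophil markers that reached the minimum, 3 passed as higher in GM-CSF and 2 as lower. Among them Prg2 reached it in M-CSF alone and Ear6 in GM-CSF alone, which set their direction. Ear6 was at 2523 and 2416 in GM-CSF db/db and db/+, against 7.0 and 6.7 in M-CSF db/db and db/+, and Siglecf (Siglec5 in the files) at 1308 and 1305.5, against 34 and 19. The list summed to 3877 and 3782 in GM-CSF db/db and db/+, against 365 and 320 in M-CSF db/db and db/+, and its part in the result on Alox15 was not tested.

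Neutrophils are a further known source of Alox5, Alox5ap and Lta4h. Of 14 neutrophil markers 13 passed as lower in GM-CSF and 1, the collagenase Mmp8, as higher. A marker that reached the minimum in M-CSF alone, as Elane did, could only come out as lower. S100a9 was at 129 and 140 in GM-CSF db/db and db/+, against 6113 and 5750 in M-CSF db/db and db/+. S100a8 was at 717 and 588 in GM-CSF, against 3118 and 2561 in M-CSF, and Elane at 2.2 and 2.3, against 252 and 287. The sum of the list was 25602 and 24116 in GM-CSF db/db and db/+, against 22644 and 22298 in M-CSF db/db and db/+, with Mmp8 at 24136 and 22757 in GM-CSF, and its part in the results on Alox5, Alox5ap and Lta4h was not tested.

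To set genes beside each other, normalised reads were divided by the length of the longest protein-coding transcript in GENCODE vM21. Per kilobase, Alox5ap led in every library, with 5966 and 5827 in GM-CSF db/db and db/+, against 5484 and 7048 in M-CSF db/db and db/+. That was 51.8% and 50.6% of the 10 genes' summed level per kilobase in GM-CSF, against 56.4% and 62.5% in M-CSF. Next per kilobase in GM-CSF db/db came Lta4h at 1710, Ptgs1 at 1234, Ltc4s at 1099, Ptgr1 at 934 and Hpgds at 404. In M-CSF db/db Hpgds came second at 1739 per kilobase, before Lta4h at 1005, Ptgs1 at 761 and Ptgr1 at 295. Lta4h and Ptgs1 were neighbours in M-CSF db/+ at 914 and 910 per kilobase, too close to order. At the low end per kilobase, Alox5 and Ptges changed places between the GM-CSF libraries, at 73.6 and 71.1 in db/db and 81.1 and 90.7 in db/+. Ptgs2 came last in GM-CSF at 7.01 and 8.31 per kilobase in db/db and db/+, and Alox15 came last in M-CSF at 2.91 and 7.51 in db/db and db/+. With the union of exons as the length, every rank in every library was the same.

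Turning to genotype, the M-CSF cultures of db/db and db/+ marrow differed in Ptgs2. It was at 742 normalised reads in db/db and 334 in db/+, from 851 and 351 reads, a ratio of 2.22 (1.86 to 2.66). On log2(normalised reads + 5) it was the 1 of 10 members that exceeded db/+ by 2-fold or more, against 5.05% of all genes, and 0 were that far below, against 0.777%. Alox15 was just inside the lower limit at -0.94 on that scale and beyond it with a pseudocount of 1, which gave 1 member that far below. Over the members the median log2 fold was -0.01, and over all genes it was 0.02.

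Alox5ap and Ptgs1 were lower in db/db M-CSF by less than 2-fold. Alox5ap was at 6861 in db/db and 8817 in db/+, a ratio of 0.778 (0.746 to 0.812), and Ptgs1 at 2183 and 2610.0, a ratio of 0.836 (0.774 to 0.903). All 9 macrophage markers also had log2 folds below 0 in the same libraries, with a median of -0.08. The M-CSF receptor Csf1r was at 105159 in db/db and 120627 in db/+, a ratio of 0.872 (0.862 to 0.882), and the part of these markers in the result was not tested. Lta4h had a ratio of 1.10 (1.01 to 1.199). Intervals of the other 6 members included 1, among them Hpgds at 0.980 (0.933 to 1.03), Ltc4s at 1.002 (0.732 to 1.41), and Alox15 at 0.387 (0.0839 to 1.27), which rests on 8 reads in db/db and 19 in db/+.

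Fibroblast and stromal markers moved with Ptgs2, an enzyme that fibroblasts are also known to make. Of 14 such markers 13 reached the minimum. Of these 11 were higher by 2-fold or more in M-CSF cultures of db/db marrow and 0 lower, with a median log2 fold of 1.32. Among all genes 5.05% were higher by that margin. Col1a2, a chain of type I collagen, was at 22962 in db/db and 8292 in db/+, a ratio of 2.77 (2.68 to 2.87). Col1a1 was at 5709 and 2273 there, and Pdgfrb, the PDGF receptor of stromal cells, at 971 and 365, a ratio of 2.66 (2.25 to 3.15). Other marker lists also had median log2 folds above 0 in db/db M-CSF. Of 6 resident peritoneal macrophage markers 3 were higher by 2-fold or more, with a median log2 fold of 0.73 and a sum over the list of 23918 in db/db and 11223 in db/+, most of it Thbs1 at 22987 and 10664. B cell markers were higher by that margin in 2 of 5, and platelet and megakaryocyte markers in 0 of 8, with medians of 0.54 in both lists. The part of these lists in the Ptgs2 result was not tested.

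The genes whose pattern over the 4 libraries was closest to that of Ptgs2 were Ncam1, Rcn1 and Cald1, among 9516 genes with a mean of at least 200 normalised reads. Likeness was the Euclidean distance between centred log2 values, which was 0.22 for Ncam1, 0.39 for Rcn1 and 0.52 for Cald1. Ncam1, a cell adhesion molecule, was at 35.5 and 39.3 in GM-CSF db/db and db/+, and at 711 and 309 in M-CSF db/db and db/+. Cald1, which encodes the actin-binding protein caldesmon, was at 384 and 441 in GM-CSF db/db and db/+, and at 6762 and 2322 in M-CSF db/db and db/+. With 4 libraries, likeness describes the pattern and nothing further.

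**Figure D3:**
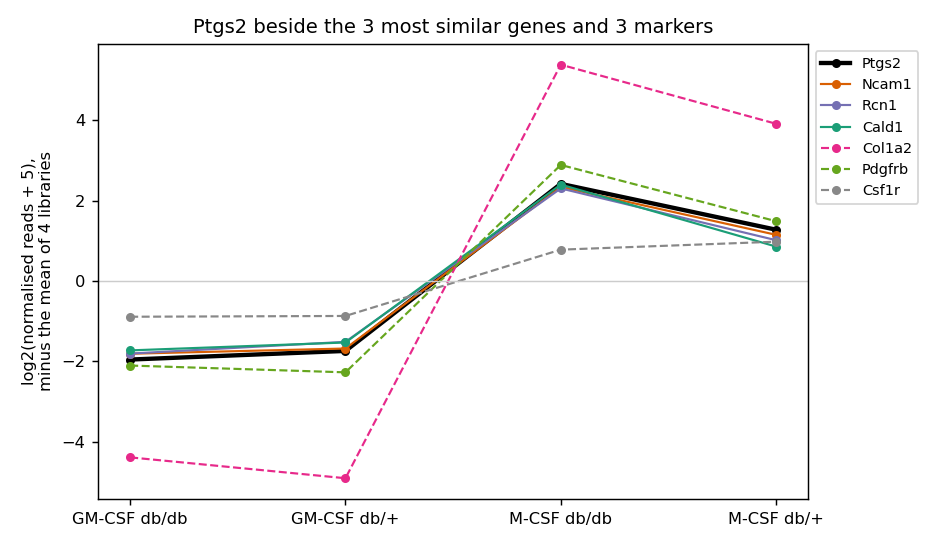
Log2(normalised reads + 5) minus the mean of the 4 libraries, for Ptgs2 (black), its 3 most similar genes (solid lines), the stromal markers Col1a2 and Pdgfrb and the macrophage marker Csf1r (dashed). Points are single libraries. Ptgs2, Ncam1, Rcn1 and Cald1 nearly coincide and peak in M-CSF db/db, as do the stromal markers, whereas Csf1r was higher in M-CSF db/+ (120627) than in M-CSF db/db (105159).

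In GM-CSF cultures the ratios of db/db over db/+ lay between 0.784 for Ptges and 1.05 for Lta4h, and 0 of 10 were 2-fold apart, against 1.06% of all genes. Ptges, at 259 in db/db and 331 in db/+, was the 1 member whose interval left out 1 (0.606 to 0.996). Ptgs2 was at 31.2 and 37.0, a ratio of 0.843 (0.379 to 1.84), an interval that reaches nearly to the lower bound of the M-CSF ratio. The difference between the genotype ratios of the 2 cultures was not tested, since each rests on 1 library per group.

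Across both cultures limma passed 0 of the 10 members for genotype, and 0.00733% of all genes, which is 1 gene, the stromal marker Sparc. At an unadjusted p under 0.05 the count was 0 of the 10 in limma and in DESeq2, and 1 in edgeR, Ptgs2, whose adjusted p was 0.351. Over all 13642 genes that count was 603 in limma, 112 in DESeq2 and 826 in edgeR, so 1 of 10 is near the background. The limma genotype effect of Ptgs2 was 0.46 (SE 0.28, limma adjusted p = 0.9996), and the other 9 effects lay between -0.60 for Alox15 and 0.10 for Lta4h. With 1 residual degree of freedom against 12.87 prior ones, these SEs rest mostly on the spread that limma estimated over all genes.

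The rest of the pathway was followed in 77 further genes, of which 47 reached the minimum. For culture 17 passed as higher in GM-CSF, 13 as lower and 17 did not pass, with a median effect of 0.31, against 0.02 over all genes. Among all genes 29.8% passed as higher and 27.3% as lower, shares that also stand beside the counts by role below. Mgst2 among the higher, and Dpep1 and Hpgd among the lower, reached the minimum in 1 culture type alone, which set their direction. For genotype 0 passed in limma. By fold, 5 of the 47 were higher by 2-fold or more in M-CSF cultures of db/db marrow, against 5.05% of all genes. By that margin 0 were lower, against 0.777%, and 0 were 2-fold apart in GM-CSF, against 1.06%.

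**Figure D4:**
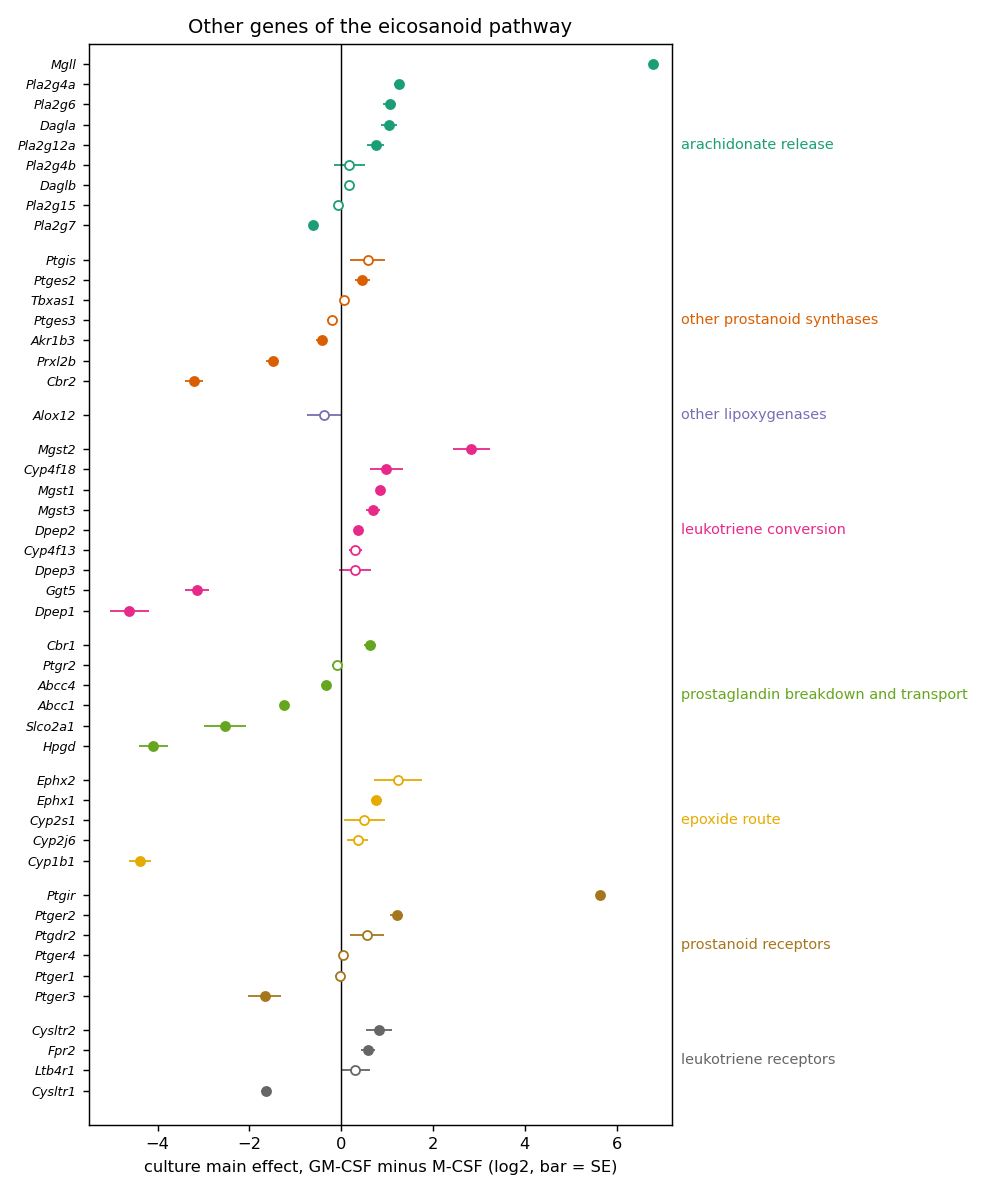
Culture effect (log2, GM-CSF minus M-CSF, bar = SE) of the 47 further pathway genes, grouped by role. Filled points passed limma at an adjusted p of 0.05. Mgll at 6.79 and Ptgir at 5.64 stand far to the right, and Dpep1, Cyp1b1 and Hpgd to the left.

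Of 9 genes listed under arachidonate release 5 passed as higher in GM-CSF and 1, Pla2g7, as lower. Pla2g4a, the cytosolic phospholipase A2 that feeds cyclooxygenases and Alox5, was at 1451 and 1252 in GM-CSF db/db and db/+, against 647 and 488 in M-CSF db/db and db/+ (effect 1.25, SE 0.11, limma adjusted p = 1.63e-07). Mgll, which splits monoacylglycerols such as 2-arachidonoylglycerol, had the largest change. It was at 17552 and 17116 in GM-CSF db/db and db/+, against 166 and 139 in M-CSF db/db and db/+, a ratio of 106 (86.6 to 131) in db/db and 123 (97.9 to 157) in db/+. Pla2g7, which hydrolyses platelet-activating factor, was at 14395 and 13904 in GM-CSF, against 23236 and 19995 in M-CSF.

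Of 7 other prostanoid synthase genes 1 passed as higher in GM-CSF and 3 as lower. Tbxas1, which makes thromboxane A2, was at 3371 and 3432 in GM-CSF db/db and db/+, and 2959 and 3620.1 in M-CSF db/db and db/+, and did not pass (effect 0.06, limma adjusted p = 0.626). Ptgis, the prostacyclin synthase, was at 71.0 and 81.9 in GM-CSF, and at 92.4 in db/db and 25.7 in db/+ M-CSF, a genotype ratio of 3.60 (1.90 to 6.77). Cbr2, a carbonyl reductase, fell to 48.4 and 65.1 in GM-CSF db/db and db/+, against 521 and 604 in M-CSF db/db and db/+ (effect -3.21, limma adjusted p = 2.88e-09). Alox12 was the 1 of 5 other lipoxygenases to reach the minimum, at 22.6 and 39.3 in GM-CSF and 40.1 and 40.9 in M-CSF.

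For conversion of leukotrienes, 5 of 9 genes passed as higher and 2 as lower. Mgst2, a relative of Ltc4s that can also make leukotriene C4, was at 77.5 and 80.8 in GM-CSF db/db and db/+, against 5.2 and 8.6 in M-CSF db/db and db/+. Ggt5, which removes glutamate from leukotriene C4, was at 31.2 and 24.7 in GM-CSF, against 258 and 310.1 in M-CSF. The dipeptidase Dpep2 was at 5062 and 5044 in GM-CSF, against 3538 and 4358 in M-CSF. Dpep1, a related dipeptidase, was at 2.2 and 0 in GM-CSF db/db and db/+, and at 241 in db/db and 82.7 in db/+ M-CSF, a genotype ratio of 2.92 (2.03 to 4.13).

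Of 6 prostaglandin breakdown and transport genes 4 passed as lower in GM-CSF and 1 as higher. The lower ones were Hpgd and the transporters Slco2a1, Abcc1 and Abcc4, and the higher one encodes a breakdown enzyme. Ptgr2, also a breakdown enzyme, did not pass (effect -0.10, limma adjusted p = 0.406). The member Ptgr1, given above, was higher in GM-CSF. Hpgd, the dehydrogenase that begins prostaglandin inactivation upstream of Ptgr1, was at 14.0 and 18.0 in GM-CSF db/db and db/+, and at 495 in db/db and 249 in db/+ M-CSF. Its M-CSF genotype ratio was 1.99 (1.61 to 2.46). Slco2a1, the prostaglandin uptake carrier, was at 14.0 and 22.4 in GM-CSF, and at 245 in db/db and 64.7 in db/+ M-CSF, a genotype ratio of 3.78 (2.58 to 5.66). In the epoxide branch Cyp1b1 was at 165 and 169 in GM-CSF, and at 6132 in db/db and 2106 in db/+ M-CSF, a genotype ratio of 2.91 (2.72 to 3.12). Ephx2, a soluble epoxide hydrolase, was the fifth such gene, at 13.1 in db/db M-CSF and 2.8 in db/+ M-CSF, a ratio of 4.68 (0.731 to 35.4). The stromal markers given above for Ptgs2 were higher in the same db/db library, and their part in these 5 results was not tested.

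Of 6 prostanoid receptors 2 passed as higher in GM-CSF and 1 as lower. Ptgir, the prostacyclin receptor, was at 12104 and 12066 in GM-CSF db/db and db/+, against 228 and 245 in M-CSF db/db and db/+, a ratio of 53.0 (44.6 to 63.6) in db/db and 49.2 (41.3 to 59.0) in db/+. Its culture effect was 5.64 (SE 0.09, limma adjusted p = 3.27e-15). Of the prostaglandin E2 receptors, Ptger2 rose to 898 and 851 in GM-CSF db/db and db/+, against 327 and 434 in M-CSF db/db and db/+, and Ptger3 was lower, at 33.4 and 19.1 against 74.1 and 113. Ptger4 was at 1269 and 1310.0 in GM-CSF, and 1239 and 1266 in M-CSF, and did not pass (limma adjusted p = 0.731). Of 4 genes in the list of leukotriene receptors 2 passed as higher and 1 as lower. The higher ones were Cysltr2 and Fpr2, and Fpr2, which the list also holds, is a formyl peptide receptor. Fpr2 was at 625 and 687.5 in GM-CSF db/db and db/+, against 501 and 379.5 in M-CSF db/db and db/+. Cysltr1, which binds cysteinyl leukotrienes, was at 677 and 704 in GM-CSF db/db and db/+, against 2288 and 2043 in M-CSF db/db and db/+ (effect -1.64, SE 0.10, limma adjusted p = 3.46e-09), opposite in sign to Ltc4s. Cysltr2 was higher, at 97.9 and 92.0 in GM-CSF, against 54.9 and 48.5 in M-CSF, and Ltb4r1, a leukotriene B4 receptor, was at 80.7 and 62.8 in GM-CSF and 44.4 and 72.3 in M-CSF and did not pass (limma adjusted p = 0.439).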

How the data were processed

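Ribosome-depleted total RNA was sequenced in read pairs, per the labels' protocols. Each deposited file gives 1 value per gene, a signal that the authors normalised (TMM, by the file names). The submitters' processing notes name TopHat 1.2.0, edgeR and the builds mm8 and mm9, with no role for either build. A counting tool, an annotation and the strand setting were not given in the sources used here. Ptgs1, Alox5ap and Ltc4s overlap exons of opposite-strand genes in GENCODE vM21, so those reads cannot be told apart.

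Whole reads were recovered by dividing by the step of 1 read. With a tolerance of 0.1, all values up to 50 reads came out whole (100%), and at least 99.9% of all values. As even counts were commoner than odd ones at 1 to 20 reads (52.6% to 56.3%), mates appear to have been counted separately, and intervals used read pairs. The floor of 3 pairs was 5.23 to 6.73 normalised reads.

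Limma 3.58.1 (additive model, variance trend, Benjamini-Hochberg over 13642 genes, two-sided, 1 residual and 12.87 prior degrees of freedom) was the main test and was tested on simulated data. edgeR 4.0.16 and DESeq2 1.42.0 on recovered reads were alternatives, and edgeR gave 7746 genes for culture and 103 for genotype. With 1 library per group, the 1 residual degree of freedom holds only how far a gene's culture effect differs between the genotypes, which may be technical. The limma p-values thus measure no spread between replicates, and rest mostly on the spread estimated over all genes.

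The members, 8 pathway lists and 14 marker lists were chosen with earlier results of these data known. All members are named. Of the pathway lists the genes at least 2-fold apart or among the 3 most abundant of their role may be named, and of the marker lists the defining and the 4 most abundant genes. Ltb4r1 falls outside that rule and was chosen after its values were seen. For Ptgs2 the 3 genes of closest pattern are named. RefSeq promoters are on GRCm38.p6, a build other than the authors', and no coordinate was joined to the deposited values. Unused per-sample columns numbered 0. No leave-one-out test of the additive model was possible, so each library was left out of a model of culture alone, an alternative chosen after seeing the data, as was the exon union as length.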

Additional observations from a re-analysis of the deposited data

How the results depend on the processing

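No paired analysis was possible because the groups share fewer than 2 replicate numbers, although the main model holds genotype as a term. Of 48 alternative counts of members, 47 stayed within 1.5 times the main count. The exception was db/db over db/+ in M-CSF, where a pseudocount of 1 gave 2 members at least 2-fold apart, Ptgs2 and Alox15, against 1. For single members' folds and effects, 454 alternatives kept direction and side of the threshold or stayed in the counting interval, and 13 moved outside it. Those that moved did so with scaling by library total, among them the db/db fold of Alox5ap given above. The exception was the db/db culture fold of Alox15 with a pseudocount of 20. The other 7 changed a tested culture effect of Alox5, Alox15 or Alox5ap, also given above. Dropping the filter or raising the level minimum to 200 cannot change a pairwise fold, so those alternatives count among the 454 by construction. Inside the counting interval, near-zero genotype folds changed sign for Ltc4s in M-CSF (0.0029 to -0.0111, DESeq2 size factors) and Hpgds in GM-CSF (0.0123 to -0.0002, library total). Leaving out each library in turn, 7 to 10 members passed for culture, and the effect of Alox5ap ranged from -0.26 to 0.10. Over all genes culture calls were 7787, and 7740 in a model of culture alone. That model gave 5009 without GM-CSF db/db, 5026 without GM-CSF db/+, 7181 without M-CSF db/db and 7026 without M-CSF db/+. Genotype calls were 1 in limma and 0 to 3 under its alternatives, 2 in DESeq2 and 103 in edgeR. The 795 genes 2-fold apart between genotypes in M-CSF became 471 with a pseudocount of 20, 1366 with no filter and 334 at a level minimum of 200. The 145 in GM-CSF became 562 with a pseudocount of 1, 1 with 20, 319 with no filter and 13 at a minimum of 200. The cause of these changes was not tested. Alox15 rested on 8 to 63 reads a library, and Ptgs2 in GM-CSF on 29 and 33.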

Other observations

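The marker lists not yet described also differed between the cultures. For markers of any list, here and above, that reached the minimum in 1 culture type alone, that minimum set the direction. Beside all marker counts, 29.8% of all genes passed as higher in GM-CSF and 27.3% as lower. Of 11 M-CSF macrophage markers 10 reached the minimum, and all 10 passed as lower in GM-CSF, with the complement gene C1qa at 2913 and 2980.0 in GM-CSF db/db and db/+, against 24314 and 22537 in M-CSF db/db and db/+. Of 11 GM-CSF culture markers 9 passed as higher and 2 as lower, and of 9 dendritic cell markers 4 as higher and 2 as lower. General macrophage markers passed as higher in 3 and as lower in 4 of 9. Platelet and megakaryocyte markers, whose cells are known for Ptgs1 and Tbxas1, passed as higher in 1 and as lower in 6 of 8, with Itga2b at 91.4 and 52.7 in GM-CSF, against 449 and 237 in M-CSF. The stromal markers passed as lower in 13 of 13. B cell and erythroid markers passed as lower in 4 of 5 and 3 of 4, T and NK cell markers as higher in 2 of 3, and resident peritoneal macrophage markers as higher in 2 and as lower in 3 of 6. For mast cells and basophils 1 passed as higher and 5 as lower of 7, and for eosinophils 3 and 2 of 5. For genotype 1 marker passed in limma over all these lists, Sparc (limma adjusted p = 0.0114).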
